A study of Caenorhabditis elegans with 8 samples.

Results

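The genes for superoxide dismutases, catalases and metallothioneins of *Caenorhabditis elegans* form a small group of 10 among the 25478 genes that a probe set of these arrays names alone. They comprise 5 superoxide dismutases (*sod-1*, *sod-2*, *sod-3*, *sod-4* and *sod-5*), 3 catalases (*ctl-1*, *ctl-2* and *ctl-3*) and 2 metallothioneins (*mtl-1* and *mtl-2*). Each gene was taken by its symbol in the annotation of the array platform, and each of the 10 had 1 probe set of its own, so that all 10 were measured and none had to be chosen among several probe sets. No filter on low values was applied.

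RNA came from whole hermaphrodites on day 1 of adulthood, in 4 pooled samples of the *dyf-1(mn335)* mutant and 4 pooled samples of wild-type N2. Both strains had been synchronised by bleaching and carried no transgene or treatment in the labels. *dyf-1* encodes a ciliary protein needed to build the distal segments of sensory cilia, so that the mutant cannot sense its environment normally, and the study used the arrays to find transcripts that differ between the strains. The values are log2 expression values, 1 per probe set and array, as normalised by the authors.

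Superoxide dismutases convert the superoxide radical, a by-product of respiration, into hydrogen peroxide, which catalases break down to water and oxygen. Metallothioneins are short cysteine-rich proteins that bind zinc, copper and cadmium. In the worm several of these genes, above all *sod-3* and *mtl-1*, are widely used as readouts of DAF-16, the transcription factor held in check by insulin-like signalling, and mutants with defective sensory cilia are known for altered insulin-like signalling and lifespan.

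The strains were compared with limma over all 29317 probe sets, and a gene was called higher or lower at a Benjamini-Hochberg adjusted p under 0.01. At this threshold 6.56% of all probe sets passed as higher in the mutant and 3.46% as lower. Of the calls 65.5% were thus higher, and 47.8% when the array medians were set equal. The mutant arrays all lay above the wild-type arrays in 12.6% of the probe sets and all below them in 11.1%. Before the single genes are given, both replicate 4 arrays need mention. Over all probe sets, Pearson's r between wild-type replicate 4 and its strain's other arrays was 0.958 to 0.974, and it was 0.987 to 0.992 among the latter. The same array reached 0.976 to 0.978 with mutant replicates 1 to 3, so that it lay nearer to the other strain than to the one on its label. For mutant replicate 4 the range was 0.978 to 0.984, beside 0.993 to 0.994 among the other mutant arrays and 0.957 to 0.961 with wild-type replicates 1 to 3. The labels give no run, and whether the RNA or the arrays of replicate 4 were partly exchanged was not tested, so that every value over all 8 arrays assumes that their labels hold. The results of the 10 genes are therefore given with and without both arrays. Since the same values set these arrays apart, calls made without them are descriptive and add no independent support. The *dyf-1* transcript was at 6.85 to 7.48 in the mutant and at 5.61 to 6.26 in wild-type, and since none of the sources used here describes the lesion this does not check the labels. The number of arrays limits the precision.

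Of the 10 genes, *mtl-1* rose and *sod-3* fell in *dyf-1(mn335)*, and the other 8 did not pass the threshold. This is 1 gene in each direction, near the share of all probe sets that was called. The median log2 fold change of the 10 genes was 0.21, beside -0.04 over all probe sets. In 7 of the 10 the arrays of the strains overlapped. *mtl-1* was higher and *sod-3* and *sod-2* were lower in every mutant array than in any wild-type array. Of all probe sets 12.6% were higher and 11.1% lower in this way. In whole worms, fewer cells of a type and less RNA per cell cannot be told apart.

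**Figure D1:**
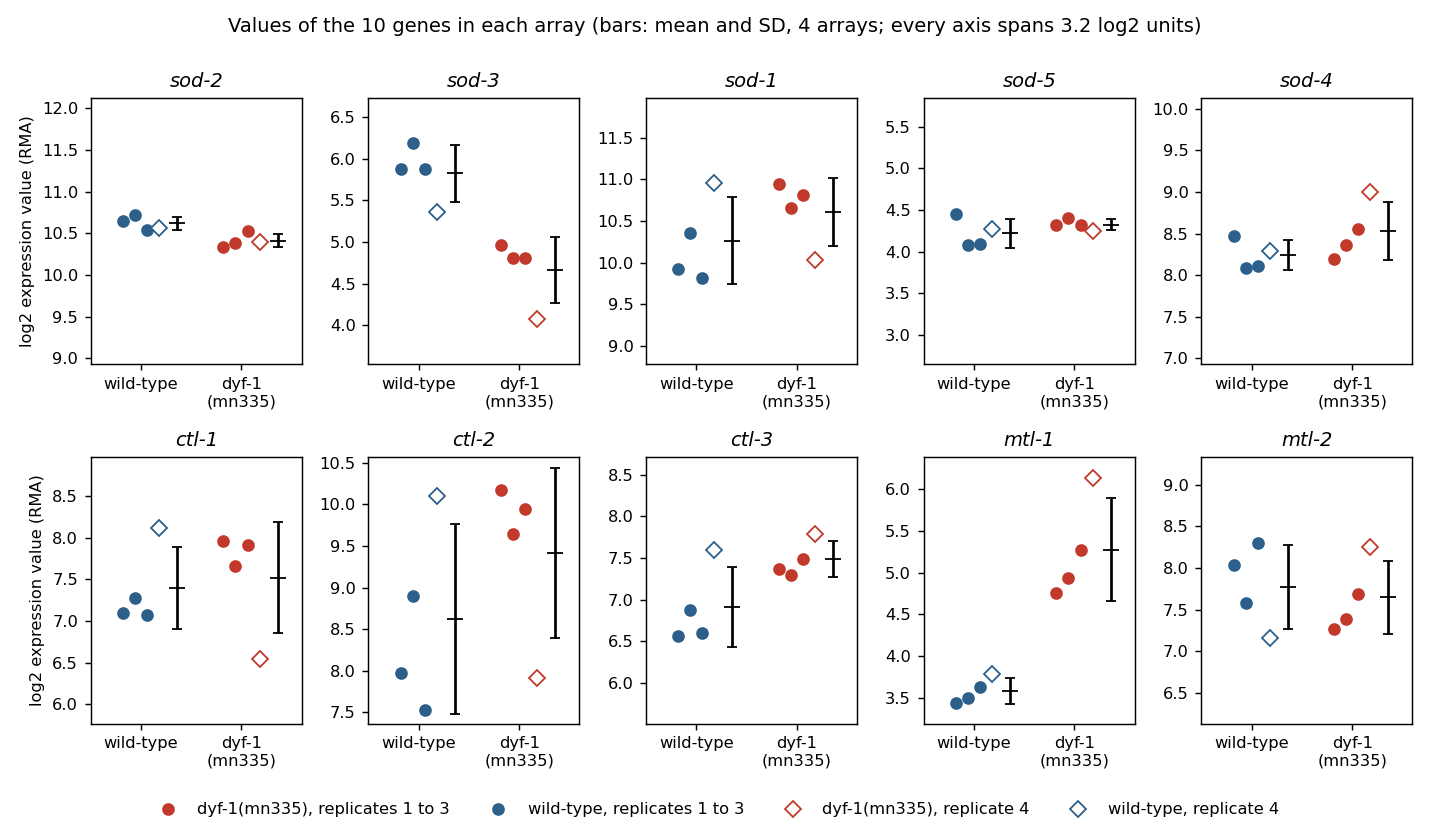
Log2 expression values of the 10 genes in each array, with wild-type in blue and *dyf-1(mn335)* in red. Replicate 4 of each strain is an open diamond, the black marks give the mean and SD of 4 arrays, and every vertical axis spans the same number of log2 units. The strains separate in *sod-3*, *mtl-1* and, by 0.02, in *sod-2*. Of the other genes, wild-type replicate 4 lies among or above the mutant arrays in *sod-1*, *sod-4*, *sod-5*, *ctl-1*, *ctl-2* and *ctl-3*. In *sod-4* and *sod-5* it also lies among the other wild-type arrays.

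The mitochondrial manganese enzymes are encoded by *sod-2*, which provides most of this activity under normal conditions, and *sod-3*, which is inducible. The *sod-3* transcript was at 4.96, 4.81, 4.81 and 4.08 on the log2 scale in mutant replicates 1 to 4. In wild-type it was at 5.87, 6.19, 5.88 and 5.36. The highest mutant array thus lay 0.40 below the lowest wild-type array, which was replicate 4, and the lowest mutant array was replicate 4 of its own strain. The log2 fold change was -1.16 with a standard error of 0.24, a 2.24-fold lower level in the mutant (adjusted p = 0.0083 from limma). The exact permutation test (two-sided) gave p = 0.0286, below which 4 arrays against 4 cannot go. The mean in the mutant, 4.66 ± 0.40 (SD, n = 4), is under 5, which was taken as dim, so that the fold change may be understated. The call is near the threshold and was lost when any single array other than wild-type replicate 4 was left out, with adjusted p-values from limma of 0.012 to 0.029, while the log2 fold change stayed between -1.32 and -0.97. Without both replicate 4 arrays it was -1.12 with a standard error of 0.13 (adjusted p = 4.3e-04 from limma).

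The *sod-2* transcript was at 10.34, 10.38, 10.53 and 10.40 in the mutant arrays and at 10.64, 10.72, 10.54 and 10.56 in the wild-type arrays. The strains did not overlap, but only 0.02 separated the nearest arrays. Its log2 fold change of -0.21 (standard error 0.12, 95% interval from -0.47 to 0.06) did not pass the threshold (adjusted p = 0.23 from limma). It was -0.36 when array medians were set equal (adjusted p = 0.046 from limma) and -0.22 without both replicate 4 arrays. The SD was 0.08 in each strain, so that of the 10 genes *sod-2* had the smallest SD in wild-type. The log2 value of *sod-3* minus that of *sod-2*, taken within each array, was lower in every mutant array than in any wild-type array and changed by -0.96 (standard error 0.25) between the strains (exact two-sided permutation test, p = 0.0286, and 0.071 after adjustment over the 5 pairs of genes compared in this way). The level of such a difference depends on the probes, so that only its change is given, which was -0.90 without both replicate 4 arrays.

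The cytosolic copper and zinc enzymes are encoded by *sod-1*, the main form, and *sod-5*, a minor one. The *sod-1* transcript was at 10.95, 10.66, 10.81 and 10.03 in the mutant arrays. In wild-type it was at 9.93, 10.35, 9.82 and 10.96. The highest of all 8 values was thus that of wild-type replicate 4, and mutant replicate 4 lay among the other wild-type arrays. With all arrays the log2 fold change was 0.35 (standard error 0.29, 95% interval from -0.30 to 0.99; adjusted p = 0.40 from limma), and 0.19 when array medians were set equal. Without both replicate 4 arrays it was 0.77 with a standard error of 0.17, and *sod-1* was called higher (adjusted p = 0.0074 from limma).

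*sod-5* was dim in both strains, at 4.24 to 4.41 in the mutant and 4.08 to 4.45 in wild-type. Its log2 fold change was 0.10 (standard error 0.13, 95% interval from -0.20 to 0.40; adjusted p = 0.60 from limma). The mutant arrays lay inside the range of the wild-type arrays, and the sign turned, to -0.06, when array medians were set equal. Without both replicate 4 arrays it was 0.15 (adjusted p = 0.41 from limma). The change of *sod-5* minus that of *sod-1* was -0.24 with a standard error of 0.33 (exact two-sided permutation test, p = 0.49, adjusted 0.61), and -0.63 without both replicate 4 arrays.

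*sod-4* encodes the extracellular copper and zinc enzyme. Its transcript was at 8.20, 8.36, 8.56 and 9.0 in the mutant arrays and at 8.47, 8.09, 8.11 and 8.29 in the wild-type arrays. The highest value was that of mutant replicate 4, and the lowest mutant array lay below 2 wild-type arrays. The log2 fold change of 0.29 (standard error 0.19, 95% interval from -0.14 to 0.72) did not pass the threshold (adjusted p = 0.29 from limma), and it was 0.14 when array medians were set equal and 0.15 without both replicate 4 arrays.

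The catalase genes lie side by side in the genome, in the order *ctl-2*, *ctl-1* and *ctl-3* among the protein-coding genes of the RefSeq annotation (assembly WBcel235). *ctl-2* encodes the peroxisomal catalase, which carries most of the activity, *ctl-1* a cytosolic form, and *ctl-3* a form whose place in the worm is less well known. The genes resemble each other in sequence. Whether their probes also take up RNA of the neighbouring copies was not tested, since probe sequences were not used here, so that their values may not be independent.

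The *ctl-2* transcript varied most of the 10 genes. It was at 10.17, 9.64, 9.94 and 7.91 in the mutant arrays and at 7.98, 8.90, 7.53 and 10.10 in the wild-type arrays. Mutant replicates 1 to 3 and wild-type replicate 4 were high, whereas wild-type replicates 1 to 3 and mutant replicate 4 were low. The means were 9.42 ± 1.03 (SD, n = 4) and 8.63 ± 1.14 (SD, n = 4), and the log2 fold change of 0.79 (standard error 0.62, 95% interval from -0.61 to 2.19) did not pass the threshold (adjusted p = 0.38 from limma). Without both replicate 4 arrays it was 1.78 with a standard error of 0.33, and *ctl-2* was called higher (adjusted p = 0.0036 from limma).

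*ctl-1* showed the same split of the arrays at a smaller size. It was at 7.96, 7.66, 7.91 and 6.55 in the mutant and at 7.09, 7.28, 7.08 and 8.11 in wild-type. Its highest value was that of wild-type replicate 4 and its lowest that of mutant replicate 4. The log2 fold change was 0.13 with all arrays (standard error 0.35, 95% interval from -0.65 to 0.91; adjusted p = 0.81 from limma), and -0.03 when array medians were set equal. It was -0.02 without mutant replicate 1 and -8.5e-04 without mutant replicate 3, so that its sign rests on single arrays. It was 0.70 without both replicate 4 arrays (standard error 0.13; adjusted p = 0.0036 from limma).

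*ctl-3* differed from this split in mutant replicate 4. It was at 7.37, 7.30, 7.49 and 7.79 in the mutant arrays, and at 6.57, 6.88, 6.60 and 7.6 in the wild-type arrays. All mutant arrays were above wild-type replicates 1 to 3, and wild-type replicate 4 lay above 3 of the mutant arrays. The log2 fold change of 0.57 (standard error 0.24, 1.49-fold, 95% interval from 0.04 to 1.11) did not pass (adjusted p = 0.10 from limma), and *ctl-3* was called higher without wild-type replicate 4 alone (0.80, adjusted p = 0.0041 from limma) as well as without both replicate 4 arrays (0.70, adjusted p = 0.0035 from limma). Within arrays, *ctl-1* minus *ctl-2* changed by -0.66 (standard error 0.39) and *ctl-3* minus *ctl-2* by -0.22 (standard error 0.70) between the strains. Over all 8 arrays the strains overlapped in both (exact two-sided permutation tests, p = 0.20 and 0.80, adjusted 0.33 and 0.80). These changes were larger without both replicate 4 arrays, at -1.09 and -1.08, and the latter turned to 0.07 without mutant replicate 1 and 0.05 without wild-type replicate 3.

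**Figure D2:**
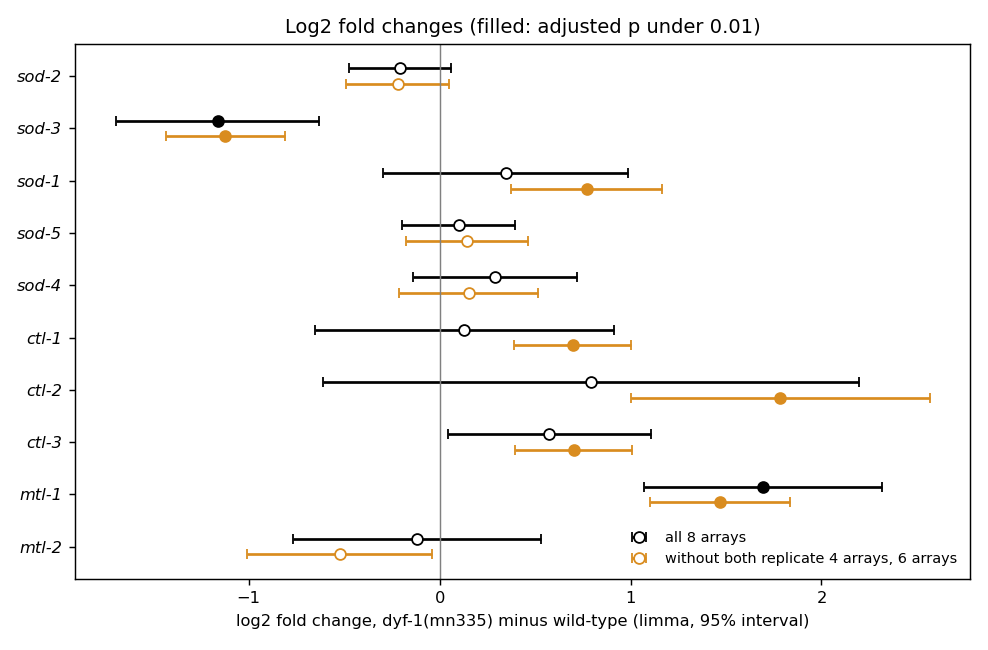
Log2 fold changes of *dyf-1(mn335)* against wild-type with 95% intervals from limma, over all 8 arrays (black) and over the 6 arrays of replicates 1 to 3 (orange), where filled points passed an adjusted p under 0.01. *sod-3* and *mtl-1* are filled in both, and *sod-1*, *ctl-1*, *ctl-2* and *ctl-3* only without both replicate 4 arrays.

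The metallothionein genes parted from each other. *mtl-1*, expressed in the pharynx and inducible in the intestine, rose in *dyf-1(mn335)*, whereas *mtl-2*, an intestinal gene induced by metals, was not called. The *mtl-1* transcript was at 4.75, 4.94, 5.27 and 6.14 in the mutant arrays and at 3.43, 3.50, 3.62 and 3.78 in the wild-type arrays. A gap of 0.97 lay between the lowest mutant and the highest wild-type array, and in both strains replicate 4 was the highest. The mean was 5.28 ± 0.62 (SD, n = 4) in the mutant and 3.58 ± 0.15 (SD, n = 4) in wild-type, where the values were dim. The log2 fold change was 1.69 with a standard error of 0.28, or 3.23-fold, which may be understated since wild-type was dim (adjusted p = 0.0032 from limma; exact two-sided permutation test, p = 0.0286). Without mutant replicate 3, or without wild-type replicate 1, 2 or 3, it fell just short of the threshold, with adjusted p-values from limma of 0.010 to 0.014, and without both replicate 4 arrays it was 1.47 (adjusted p = 2.7e-04 from limma).

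*mtl-2* was at 7.27, 7.39, 7.69 and 8.25 in the mutant arrays and at 8.03, 7.58, 8.30 and 7.16 in the wild-type arrays. Replicate 4 was the highest mutant array and the lowest wild-type array. The log2 fold change was -0.12 (standard error 0.29, 95% interval from -0.77 to 0.53; adjusted p = 0.78 from limma), -0.28 when array medians were set equal, and -0.52 without both replicate 4 arrays (standard error 0.21; adjusted p = 0.073 from limma). Its sign turned when mutant replicate 1 or wild-type replicate 3 was left out, at 0.01 and 0.06. Within each array the log2 value of *mtl-1* minus that of *mtl-2* was higher in every mutant array than in any wild-type array. It changed by 1.81 with a standard error of 0.31 (exact two-sided permutation test, p = 0.0286, adjusted 0.071 over the 5 pairs), and by 1.99 without both replicate 4 arrays. With 5 pairs and 4 arrays against 4, an adjusted p under 0.05 would have needed at least 3 pairs at the smallest p.

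The replicate 4 arrays did not move the 10 genes alike. Relative to the mean of wild-type replicates 1 to 3, wild-type replicate 4 was higher by 1.97 in *ctl-2*, 0.97 in *ctl-1*, 0.93 in *sod-1* and 0.91 in *ctl-3*, where the mean of mutant replicates 1 to 3 was higher by 1.78, 0.70, 0.77 and 0.70. In *mtl-1* it was higher by only 0.26, against 1.47 for mutant replicates 1 to 3. In *sod-3* it was at -0.62 against -1.12, and in *mtl-2* at -0.82 against -0.52. Wild-type replicate 4 was therefore nearer to the mean of mutant replicates 1 to 3 than to that of its own strain in the catalases, *sod-1*, *sod-3* and *mtl-2*, and nearer to its own strain in *mtl-1*. Mutant replicate 4 differed from mutant replicates 1 to 3 by -2.0 in *ctl-2*, -1.30 in *ctl-1*, -0.78 in *sod-1* and -0.78 in *sod-3*, and by 1.16 in *mtl-1*, 0.80 in *mtl-2*, 0.63 in *sod-4* and 0.40 in *ctl-3*. Over replicates 1 to 3 alone, *sod-1*, *ctl-1*, *ctl-2*, *ctl-3* and *mtl-1* were called higher and *sod-3* lower, 5 and 1 of the 10 genes. In this setting 17.0% of all probe sets were higher and 16.3% lower. What sets the replicate 4 arrays apart is not given in the labels.

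**Figure D3:**
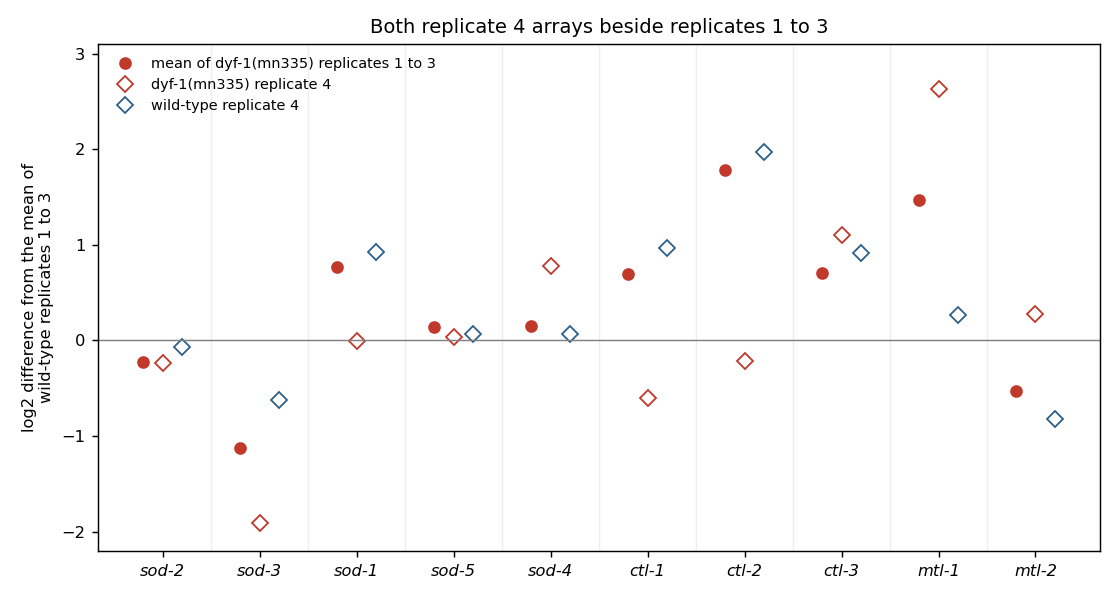
Difference of each gene from the mean of wild-type replicates 1 to 3, on the log2 scale, for the mean of mutant replicates 1 to 3 (filled red), mutant replicate 4 (open red) and wild-type replicate 4 (open blue). In *ctl-2* the mean of mutant replicates 1 to 3 and wild-type replicate 4 lie at 1.78 and 1.97 and mutant replicate 4 lies below 0, while in *mtl-1* both mutant marks lie above 1 and wild-type replicate 4 at 0.26.

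Some lists of tissue markers differed between the strains, and some of these lists also set the replicate 4 arrays apart from their strains. Of 7 pharyngeal markers 1 was called higher and none lower. The mean log2 value of this list was 9.51 to 9.68 in mutant replicates 1 to 3 and 8.96 in mutant replicate 4, beside 7.86 to 8.19 in wild-type replicates 1 to 3 and 8.99 in wild-type replicate 4. Of 11 markers of the epidermis and the moult 5 were called higher and none lower, with a mean of 7.75 to 8.37 in mutant replicates 1 to 3, 7.30 in mutant replicate 4, 6.18 to 6.44 in wild-type replicates 1 to 3 and 7.42 in wild-type replicate 4. *ctl-1*, *ctl-2*, *ctl-3* and *sod-1* were likewise higher in wild-type replicate 4 than in the other wild-type arrays by 0.91 to 1.97, and *mtl-1* by 0.26. Of 10 intestinal markers 1 was higher and 2 were lower, with list means of 9.44 to 9.68 in the mutant and 9.66 to 9.79 in wild-type. Of 11 neuronal markers 8 were higher and none lower. Their mean was 9.33 to 9.38 in mutant replicates 1 to 3 and 9.29 in mutant replicate 4. It was 8.02 to 8.08 in wild-type replicates 1 to 3 and 8.56 in wild-type replicate 4. In this list both replicate 4 arrays thus lay nearer to their own strain. Of 8 sperm markers none was higher and 2 were lower, and none of 7 body wall muscle markers, 13 oocyte and eggshell markers or 4 yolk genes was called. The body wall muscle mean was 10.72 to 10.93 in mutant and 9.90 to 10.08 in wild-type replicates 1 to 3. Mutant replicate 4 was at 10.50 and wild-type replicate 4 at 10.78. For yolk these values were 11.76 to 11.83, 12.13 to 12.38, 12.07 and 11.77. The sperm mean was 4.83 to 5.08 over all mutant arrays and 5.37 to 5.57 over all wild-type arrays. At an unadjusted p under 0.05 from limma, 19.0% of all probe sets passed as higher and 20.0% as lower. At this limit 6 pharyngeal, 9 epidermis and moult, 10 neuronal and 3 body wall muscle markers were higher, and none of these lists had a lower gene. Of the intestinal markers 1 was higher and 3 were lower, and of the sperm markers 1 was higher and 5 were lower. No gene of the oocyte, eggshell and yolk lists was in either direction. The part of these tissues in the values of the 10 genes was not tested.

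Hydrogen peroxide is also removed by enzymes outside the 10 genes. Of 11 genes of the peroxiredoxin and thioredoxin system 1 rose and 1 fell, and the list had a median log2 fold change of -0.28. *trx-3*, an intestinal thioredoxin gene, rose by 1.81 (standard error 0.29, adjusted p = 0.0030 from limma), and the peroxiredoxin gene *prdx-6* fell by 1.65 (standard error 0.35; limma, adjusted p = 0.0099). Of 16 genes of the glutathione system none rose and 1 fell, the glutathione peroxidase gene *gpx-5* at -1.13 (standard error 0.21, adjusted p = 0.0061 from limma), and the median was -0.64. With no adjustment of p, 1 gene of the latter list was higher and 11 were lower at 0.05, beside 19.0% and 20.0% of all probe sets. With adjustment, 6.58% of all genes were called higher and 3.58% lower. The call of *gpx-5* was lost when any single array other than wild-type replicate 4 was left out, that of *prdx-6* without any 1 of replicates 1 to 3 of either strain, and that of *trx-3* without mutant replicate 2 or 3 or wild-type replicate 1, 2 or 3. The median over all genes was -0.04.

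In the peroxisome, where CTL-2 acts, 1 of 11 assembly genes fell and none rose. It was *prx-5*, the gene of the import receptor for peroxisomal enzymes, at -0.84 (standard error 0.17, adjusted p = 0.0073 from limma), and the median of this list was -0.71, with 7 genes lower and 1 higher at 0.05 without adjustment of p (20.0% and 19.0% of all probe sets). The call of *prx-5* was lost when any single array other than wild-type replicate 4 was left out, and with a trended robust spread. The mean log2 value of the 11 assembly genes was 7.59 to 7.77 in mutant replicates 1 to 3 and 8.39 to 8.53 in wild-type replicates 1 to 3. It was 8.05 in mutant replicate 4 and 7.95 in wild-type replicate 4. *ctl-2* was thus higher in mutant replicates 1 to 3 than in wild-type replicates 1 to 3, where the assembly genes were lower. Over replicates 1 to 3 alone 8 assembly genes were lower and 1 was higher, where 16.3% and 17.0% of all probe sets were. Of 5 genes of the dual oxidase complex, which makes hydrogen peroxide at the cuticle, none was called. The smallest p in this list was that of its maturation factor gene *doxa-1* (log2 fold change 0.89, standard error 0.31, adjusted p = 0.064 from limma), and 2 genes were higher at an unadjusted p under 0.05 (19.0% of all probe sets).

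Beside the metallothioneins, 19 genes of metal transport and metal response were measured, of which none rose and *cdr-4*, of the cadmium-responsive gene family, fell by 2.05 on the log2 scale (standard error 0.32, adjusted p = 0.0026 from limma). The median was -0.08, with 2 genes higher and 7 lower at 0.05 without adjustment (19.0% and 20.0% of all probe sets). The call of *cdr-4* was lost without mutant replicate 1 or 2 or wild-type replicate 1 or 2. *numr-1* and *cdr-1*, known to be induced by cadmium and named for this role outside the rule for the genes given here, were dim in both strains and had log2 fold changes of -0.76 and 0.23 (adjusted p = 0.073 and 0.49 from limma). *mtl-1* was therefore the gene that rose among the metallothioneins and these metal genes, on the arrays of all replicates.

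Of 13 further genes known as activated targets of DAF-16, none rose and *hsp-12.3*, a small heat shock protein gene, fell by 3.14 (standard error 0.42, adjusted p = 0.0012 from limma). The median was -0.14, with 2 genes higher and 4 lower at 0.05 without adjustment (19.0% and 20.0% of all probe sets). *sod-3* and *mtl-1*, which are both used as readouts of DAF-16, thus lay on opposite sides. Of 14 measured regulators of oxidative and metal stress genes none was called, where 6.56% of all probe sets were higher and 3.46% lower. The smallest p was that of *vhl-1*, the gene of a ubiquitin ligase subunit that acts on HIF-1, at -1.0 (standard error 0.32, adjusted p = 0.050 from limma), and 4 genes were higher and 1 was lower at 0.05 without adjustment (19.0% and 20.0% of all probe sets). *daf-16* itself, *skn-1*, the gene of the main regulator of the oxidative stress response, and *elt-2*, that of an intestinal GATA factor, were named for their role, and had log2 fold changes of 0.60, 0.43 and 0.45 (adjusted p = 0.19, 0.078 and 0.21 from limma). Over replicates 1 to 3 alone 7 of the regulators were higher and 1 was lower, where 17.0% and 16.3% of all probe sets were.

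**Figure D4:**
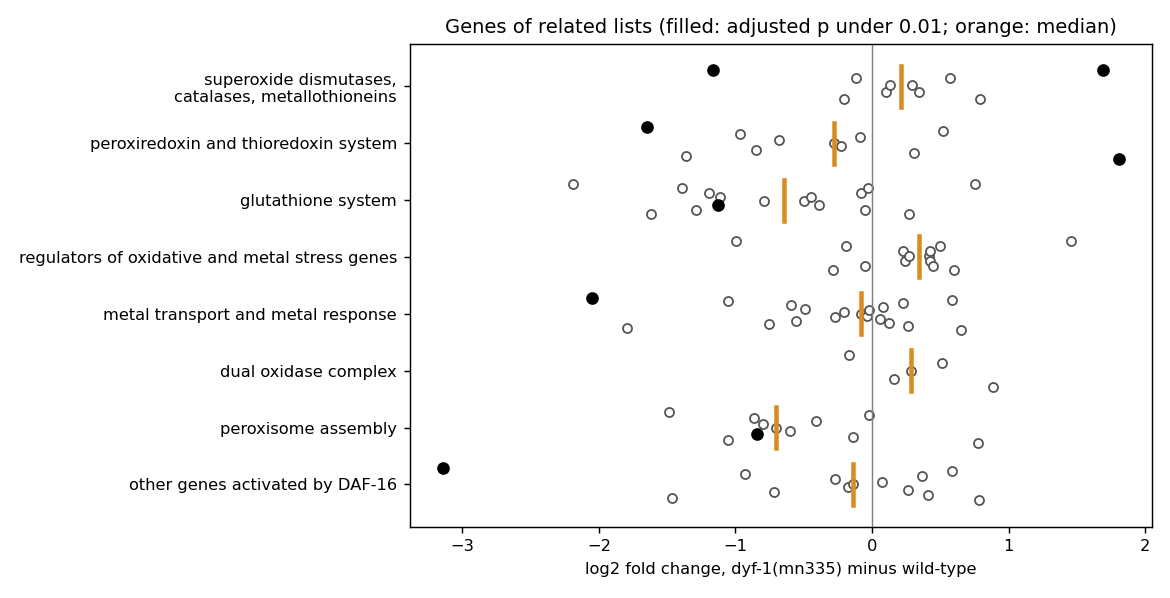
Log2 fold changes of the 10 genes (top row) and of the genes of 7 related lists over all 8 arrays, with 1 point per gene, filled where the adjusted p from limma was under 0.01, and the median of each row in orange. The rows of the glutathione system and of peroxisome assembly have medians of -0.64 and -0.71, and the 10 genes one of 0.21.

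Among 13868 genes with a mean log2 value of 5 or more, those most like *sod-3* over the 8 arrays were *F26G5.1*, *nhx-1*, which encodes a sodium and proton exchanger, and *F14D7.2*. Likeness was measured as the root mean square difference of the log2 values, each gene centred on its own mean, and came to 0.090, 0.090 and 0.135. Their log2 fold changes were -1.18, -1.13 and -1.22. Most like *mtl-1* were *nssp-90*, *K03C7.7* and *F54B3.4*, with differences of 0.168, 0.180 and 0.187 and log2 fold changes of 1.5, 1.82 and 1.75. These are descriptions over 8 arrays, with no test.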

How the data were processed

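The authors read the Affymetrix *C. elegans* Gene Array files with the R package oligo and applied RMA (background adjustment, quantile normalisation between arrays, median polish), and deposited log2 values of 29317 probe sets in 8 arrays. All 8 columns were used, with no missing value. The platform annotation names 1 gene for 25546 probe sets, several for 646 and none for 3125. No source used here names the genome build of the probes, so no coordinates are printed, and no sequences were used.

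The strains were compared with limma 3.58.1 in R 4.3.3 (lmFit and eBayes at default settings, two-sided, no covariates), with Benjamini-Hochberg adjustment across the whole table and calls below 0.01. Single values were also compared with exact permutation tests. The fit was tested on simulated data with known changes, 100 probe sets for each size. At the same threshold it recovered 31% of log2 changes of 1 and 73% of log2 changes of 2. A gene without a call thus need not be unchanged. The study's legends describe the 4 samples of each strain as independent biological experiments.

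The genes, the lists (written from general knowledge) and the pairs were chosen with earlier results of these data known. The text names the 10 genes, *dyf-1*, the called genes with the smallest p in each list (at most 2 each way, or without a call the 1 gene with the smallest p), and the 3 genes most like each called one. *numr-1*, *cdr-1*, *daf-16*, *skn-1* and *elt-2* were added for their role, with their values known. The metal genes whose arrays did not overlap between the strains were also named, with their values known. Of the lists, 4 regulators, 3 metal genes, 1 intestinal marker, 2 sperm markers and 1 yolk gene had no probe set naming them alone. The alternatives were an adjusted p under 0.05, a filter at a mean log2 value of 5, a trended robust spread, array weights, centring, cyclic loess, the mean of a gene's probe sets, the replicate number as a block, and leaving out each array in turn or both replicate 4 arrays. Plots used Python 3.11.15 and matplotlib 3.10.9.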

Additional observations from a re-analysis of the deposited data

Results flagged for a closer look

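In *sod-3*, mutant replicate 4 (4.08) stood apart from the other mutant arrays (4.81, 4.81 and 4.96), since its gap to the nearest of them made up 0.829 of the whole range, just past the limit for 4 samples. It was the 1 such case in the 20 groups of 4 arrays looked at, and chance gives about 1 in 20. Without this array the log2 fold change of *sod-3* was -0.97 (adjusted p = 0.012 from limma), and its cause was not tested.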

How the results depend on the processing

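Over all 8 arrays 1 of the 10 genes was higher and 1 lower, and 1924 and 1015 of all probe sets. An adjusted p under 0.05 gave 3848 and 3419 probe sets and the same counts of the 10 genes. With array weights 3 of the 10 were higher, *mtl-1*, *ctl-2* (1.48) and *ctl-3* (0.68), with 5489 probe sets higher and 5391 lower. With the replicate block none of the 10 was called in either direction (*mtl-1* and *sod-3* at an adjusted p of 0.012 and 0.014 from limma), with 236 and 79 probe sets. Deviations of same-numbered arrays from their strain means correlated at -0.31, 0.01, -0.20 and -0.57. The labels do not say whether equal numbers pair the samples, and why fewer calls passed with the block was not tested. The filter on dim probe sets kept 15520 of them and left out *mtl-1* and *sod-5*, so that 0 of the 10 were higher. With a trended robust spread *sod-3* fell short (adjusted p = 0.010 from limma), leaving 0 lower. Centring gave 1653 lower probe sets, a share of higher calls of 47.8% in place of 65.5% (59.5% after cyclic loess), and a median of all probe sets of -0.19. Leaving out 1 array gave 0 to 2 higher and 0 to 1 lower of the 10, and 932 to 3893 and 324 to 3788 probe sets. Wild-type replicate 4 gave the upper end of each range, with *ctl-3* as the second gene higher. Without both replicate 4 arrays 5 were higher, with 4977 and 4781 probe sets. For the pairs of genes, leaving out 1 array gave -1.09 to -0.77 for *sod-3* minus *sod-2*, 1.65 to 2.08 for *mtl-1* minus *mtl-2*, and -0.82 to 0.07 for *ctl-3* minus *ctl-2*. Of 256 counts in the lists, 172 were within 1.5 times those over all arrays. Causes were not tested.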
